A study of Homo sapiens with 9 samples.

Results

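SLC2A1, SLC2A3 and SLC2A14 encode the facilitative glucose transporters GLUT1, GLUT3 and GLUT14. These 3 genes of the 22384 with at least 1 read pair were selected on their measured read pairs, with the results of the imatinib comparison known, so their totals and fold changes are given as a description and without a test. A read pair counted for a gene when both of its ends lay on the gene's strand within 1 kb of its Gencode v44 body. K562 is a cell line derived from a patient with chronic myeloid leukaemia and carries the BCR-ABL1 fusion kinase, which imatinib inhibits. The comparison uses 4 TIF-Seq2 libraries, 2 of K562 cells kept 24 h with imatinib at 1 μM and 2 of K562 cells given DMSO alone. TIF-Seq2 joins the capped 5′ end and the poly(A) end of the same RNA molecule in 1 read pair, so each pair is a start linked to an end. After removal of PCR duplicates each captured molecule counts once. Whether short molecules were captured more readily than long ones was not tested, so shares of isoforms of unlike length can carry such a difference.

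Facilitative glucose transporters carry glucose across the plasma membrane down its concentration gradient, and hexokinases then phosphorylate it, which keeps it in the cell. GLUT1 is the transporter of erythrocytes and of most dividing cells. GLUT3 has a high affinity for glucose and is best known from neurons and other cells with a high demand. SLC2A14 lies next to SLC2A3 on chromosome 12 and arose from it by duplication, and its transcripts are best known from testis.

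The sequences below carry the starts and ends on which the results turn. The SLC2A1 promoter is read from hg38, minus strand, from 120 bases before the most used start to the 20 bases that begin with it, and capitals mark matches to the motifs searched on both strands (TATAAA, the TATA box, and GGGCGG, the GC box, which reads CCGCCC on the opposite strand).
SLC2A1, chr1:42958849-42958988: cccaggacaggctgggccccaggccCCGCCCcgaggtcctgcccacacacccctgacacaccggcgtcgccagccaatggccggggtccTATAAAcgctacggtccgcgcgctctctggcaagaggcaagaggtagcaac

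The SLC2A1 promoter held 1 TATAAA, which began 31 bases before the start. In the 300-base windows from 250 bases before to 50 after a start, TATAAA was found in 11.5% of 35116 RefSeq promoters (GRCh38.p14), and it did not match in the SLC2A14 window, chr12:7872866-7873165. GGGCGG, present in 45.0% of those promoters, matched at 2 places in the SLC2A1 window and at 1 in the SLC2A14 window. ACGTG, the core of the hypoxia response element, was in 21.4% of promoters, and it matched once in the SLC2A14 window but not in that of SLC2A1. CACGTG, the E-box, which contains ACGTG and was in 7.26% of promoters, matched in neither window. The SLC2A1 window is the same in RefSeq and around the measured start.

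The ends are shown as the last 30 bases before cleavage, read from the minus strand of hg38, with capitals for the poly(A) signals AATAAA and ATTAAA.
SLC2A3, proximal end, chr12:7920549-7920578: tatacctatatAATAAAgctactgatttcc
SLC2A3, distal end, chr12:7919231-7919260: gttttaaAATAAAaattctgaatgtacacg
SLC2A1, main end, chr1:42926159-42926188: cctaaacagatataaatggctggtttttag
SLC2A1, second end, chr1:42926239-42926268: caatATTAAAtacagacactaagttatagt
SLC2A1, end in intron 1, chr1:42951612-42951641: agaagcatAATAAAtgaaagagtgtcttct

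Both SLC2A3 ends had AATAAA within 23 bases of the end. The main SLC2A1 end had neither hexamer in the 40 bases before it, and of the 8 SLC2A1 ends 2 had one. Only AATAAA and ATTAAA were searched, so other forms of the signal could have been missed. No SLC2A1 or SLC2A3 isoform end had 7 or more A in the 10 bases downstream, since such ends were left out when isoforms were built.

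SLC2A3 was 27.4-fold lower after imatinib than with DMSO, SLC2A1 was 2.83-fold higher, and SLC2A14 had no read pair in any library. SLC2A1 (ENSG00000117394.24, chr1:42925353-42958893, minus strand) had 265 and 615 read pairs in the DMSO libraries and 1334 and 580 in the imatinib libraries. After scaling for depth these were 69.7 and 108 counts per 1000000 (CPM) with DMSO and 269 and 235 CPM with imatinib. The conditions did not overlap, though the share of all genes separated in this way was not counted, here or for SLC2A3. The log2 fold change was 1.50 (SE 0.29, n = 2 and 2), or 2.83-fold. It was 1.20 without DMSO replicate 1 and 1.84 without DMSO replicate 2, the DMSO libraries being the further apart of the replicates. In bulk libraries such as these, fewer cells of a type and less RNA per cell cannot be told apart.

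SLC2A3 (ENSG00000059804.17, chr12:7919230-8019007, minus strand) had 464 and 743 read pairs with DMSO and 19 and 14 with imatinib. The levels were 122 and 130 CPM with DMSO and 3.83 and 5.67 CPM with imatinib. Both imatinib libraries lay far below both DMSO libraries, with a log2 fold change of -4.77 (SE 0.35), or 27.4-fold. Leaving out 1 library at a time gave -5.07 to -4.45.

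The order of the 2 levels was reversed between the conditions. SLC2A3 made up 63.6% of the SLC2A1 and SLC2A3 read pairs in DMSO replicate 1 (95% Wilson interval 60.1 to 67.1%) and 54.7% in DMSO replicate 2 (52.1 to 57.3%). In the imatinib libraries it made up 1.40% (0.901 to 2.18%) and 2.36% (1.41 to 3.92%). In DMSO the 2 genes differed by less than 2-fold, and after imatinib nearly all of their molecules were SLC2A1.

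**Figure D1:**
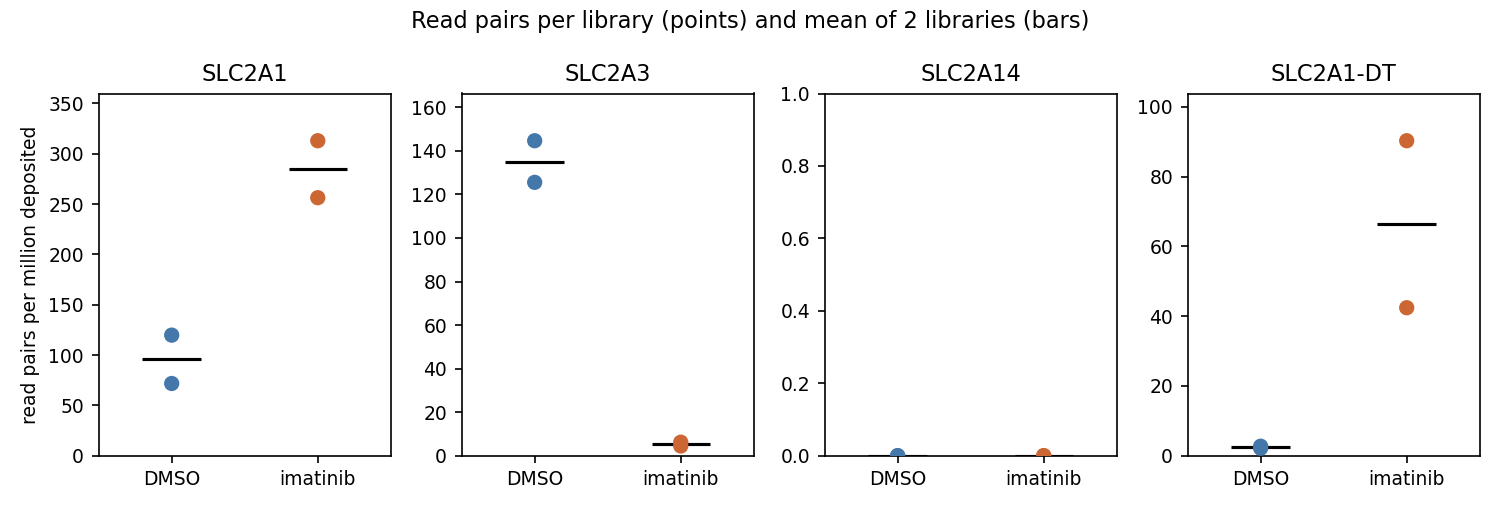
Read pairs per 1000000 deposited pairs (y axis, linear, a scale per panel) for SLC2A1, SLC2A3, SLC2A14 and the divergent lncRNA SLC2A1-DT in the 2 DMSO (blue) and 2 imatinib (orange) libraries, with the mean of each condition as a bar. SLC2A1 and SLC2A1-DT were higher in both imatinib libraries, SLC2A3 was lower in both, and SLC2A14 was at 0 in all 4.

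SLC2A14 (ENSG00000173262.12, chr12:7812512-7891148, minus strand) had 0 pairs in all 4 libraries, and no pair on either strand had even 1 end within 1 kb of it. A count of 0 allows up to 3 pairs, which is 0.812 and 0.584 per 1000000 deposited pairs in the DMSO libraries and 0.704 and 1.33 in the imatinib libraries. Its coding sequence and that of SLC2A3 were the same at 96.8% of 1488 aligned bases (transcripts SLC2A14-203 and SLC2A3-201), against 67.3% between SLC2A3 and SLC2A1. The authors kept only uniquely mapped pairs, so the copies of the sequenced ends were counted. Of the 19 distinct last 50 bases of the annotated SLC2A14 transcripts, 4 had a full copy elsewhere in hg38, in each case at SLC2A3, and 17 had a stretch with at least 40 identical bases elsewhere. Of its 20 distinct first 50 bases, 0 had a full copy elsewhere and 9 had at least 40 identical bases. The 50 bases at the measured SLC2A3 start and at its 2 measured ends had 44 to 47 identical bases at their closest other place in hg38, which was in no case SLC2A14. Whether multiple mapping removed pairs of either gene was not tested.

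The gap between the SLC2A3 and SLC2A14 bodies is 28082 bp, both genes are read from the minus strand, and SLC2A3 lies upstream. No pair started in one and ended in the other in any library, so no read-through molecule was detected at this depth. Since no pair had an end within 1 kb of SLC2A14, this count could only be 0, and the other settings tried could only narrow it. A read-through molecule with an end that did not map uniquely could have been missed. Of the 34 distinct annotated genes within 100 kb of SLC2A3 or SLC2A14 or within 50 kb of SLC2A1, with SLC2A3 and SLC2A14 counted as neighbours of each other, 11 had a read pair. C3AR1, the complement C3a receptor gene upstream of SLC2A3, had 25 and 43 pairs with DMSO and 0 and 2 with imatinib. It fell by 4.53 on the log2 scale (SE 0.82, adjusted p = 0.00939, edgeR), in a comparison that called 3.26% of 12135 genes lower. Its fold rests on few pairs, and without imatinib replicate 1, the library at 0, the log2 fold change was -3.07. Without imatinib replicate 2 the arm held no pair, and no fold is given. NECAP1, an endocytic adaptor gene beyond it, had 24 and 61 pairs with DMSO and 38 and 13 with imatinib and was not called (adjusted p = 0.576). FOXJ2, between SLC2A3 and C3AR1, had 1 and 5 pairs with DMSO and 5 and 1 with imatinib and passed no filter.

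SLC2A3 formed 2 isoforms, from 1 start and 2 ends, which held 838 of its 1240 pairs, and the other 402 pairs lay in no isoform. Its start at chr12:7936187 was that of the annotated transcript SLC2A3-201 to the base, and 579 of its 1240 pairs began at that position. The Gencode body reaches 82.8 kb further upstream, and only 25 pairs began more than 200 bp upstream of this start. Such pairs numbered 7 and 11 with DMSO and 5 and 2 with imatinib. They were 1.51% and 1.48% of the DMSO pairs and 26.3% (95% Wilson interval 11.8 to 48.8%) and 14.3% (4.01 to 39.9%) of the few imatinib pairs. A start position counted in a library from 9 and 11 pairs with DMSO and from 8 and 5 with imatinib. It had to reach this in 2 libraries, so these pairs were too few to form an isoform. The pairs that began within 200 bp of the start numbered 344 and 556 with DMSO and 10 and 10 with imatinib.

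Both ends lay in the last exon, exon 10 of 10, and were 1318 bp apart. The isoform that stopped at the proximal end, chr12:7920549, had 172 and 278 pairs with DMSO and 7 and 6 with imatinib. The isoform that ran to the distal end, chr12:7919231, 1 base from the annotated end, had 151 and 221 pairs with DMSO and 2 and 1 with imatinib. Both were lower in each imatinib library, with log2 fold changes of -4.51 (SE 0.45) and -6.32 (SE 0.54). Since the distal isoform had 3 imatinib pairs in all, its ratio per deposited pair, 91.6-fold lower, has a 95% counting interval of 31.1 to 446-fold, against 25.6-fold (14.8 to 48.4) for the proximal one, and these intervals overlap.

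In DMSO the proximal end was used somewhat more than the distal end, at 52.6% and 52.9% of pairs from the SLC2A3 promoter. Of pairs from the SLC2A3 promoter, 45.1% (95% Wilson interval 39.9 to 50.3%) and 42.3% (38.2 to 46.4%) ran to the distal end in the DMSO libraries. In the imatinib libraries it was 2 of 10 pairs (5.67 to 51.0%) and 1 of 10 (1.79 to 40.4%), or 15% of the 20 pooled (5.24 to 36%). The test of usage, the change of an isoform relative to the other isoforms of its gene, gave a log2 value of -1.22 (SE 0.62) for the distal isoform, adjusted p = 0.816 (edgeR diffSpliceDGE over 14232 isoforms, of which 1.7% were called). The interval of each imatinib library overlapped that of each DMSO library. Only the pooled interval, which takes no account of differences between libraries, lay below them. The usage test did not pass its threshold.

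SLC2A1 formed 13 isoforms from 3 starts and 8 ends, which held 1838 of its 2794 pairs. The most used start, chr1:42958868, was the annotated start of SLC2A1-203 to the base, and the others lay at chr1:42958829 and chr1:42958913. The most used end, chr1:42926159, lay in the last exon, as did 5 others, and 2 ends lay in intron 1. The main end lay 3 bases from the annotated end of SLC2A1-208, and the end at chr1:42926239 lay 5 bases from that of SLC2A1-212. None of the 8 reached the annotated end of SLC2A1-203 at chr1:42925353.

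The main start joined to the main end had 94 and 233 pairs with DMSO and 467 and 246 with imatinib, a log2 fold change of 1.71 (SE 0.35). The same start joined to the end at chr1:42926239 had 25 and 44 pairs with DMSO and 171 and 87 with imatinib, a log2 fold change of 2.44 (SE 0.37). The start at chr1:42958829 joined to the main end had 8 and 39 pairs with DMSO and 53 and 27 with imatinib, and its log2 fold change of 1.37 (SE 0.54) was 0.76 without DMSO replicate 1 and 2.52 without DMSO replicate 2. The main start joined to the end at chr1:42926186 had 12 and 13 pairs with DMSO and 61 and 34 with imatinib, a log2 fold change of 2.44 (SE 0.44). All 4 were higher per deposited pair in the imatinib libraries, as was the gene's total. They share the main start or the main end, so they are not separate results. The share of all isoforms separated in this way was not counted. The remaining 9 isoforms had 9 to 80 pairs each.

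**Figure D2:**
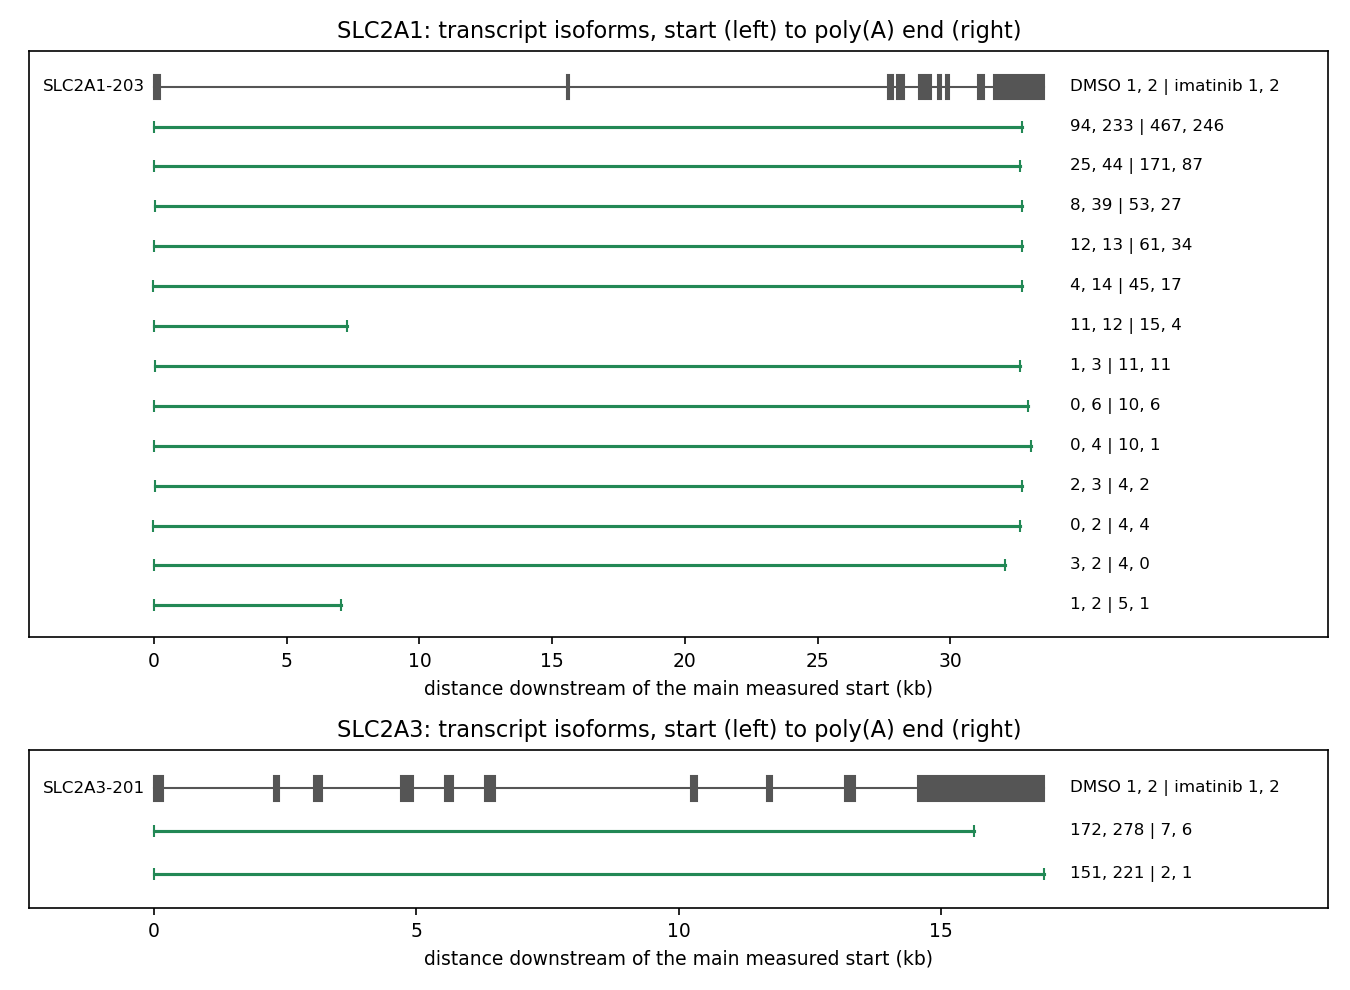
Isoforms of SLC2A1 (13) and SLC2A3 (2) drawn to scale from start to poly(A) end (x axis, kb downstream of the most used start), in order of read pairs, under the exons (grey boxes) of SLC2A1-203 and SLC2A3-201. Numbers at the right are read pairs in the 2 DMSO and the 2 imatinib libraries. All but 2 SLC2A1 isoforms cross the gene, those 2 end in intron 1, and both SLC2A3 isoforms share a start.

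The main end of SLC2A1 took the largest share of its promoter pairs in each of the 4 libraries. Of the pairs from its promoter, the main end took 58.8% and 68.6% with DMSO and 64.3% and 63.5% with imatinib, so that the imatinib libraries lay between the DMSO ones. The end at chr1:42926239 took 16% and 11.6% with DMSO and 19% and 21.5% with imatinib, and its usage did not pass the test (log2 usage at the level of poly(A) clusters 0.64, SE 0.39, adjusted p of 1.00, where 0.0597% of 6699 clusters were called). The 3 starts did not pass either, with adjusted p of 1.00 for each of them, in a test that called 2.83% of 9177 start clusters.

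Short SLC2A1 molecules that ended at chr1:42951612 made up a smaller share after imatinib, though the change in usage did not pass the adjusted threshold. The end at chr1:42951612 lies 7.26 kb from the start, in intron 1 of SLC2A1-203 and 4 bases from the annotated end of the short transcript SLC2A1-204. It took 7.56% and 4.80% of promoter pairs with DMSO and 1.79% and 1.35% with imatinib, or 6.18 ± 1.96% and 1.57 ± 0.32% (SD, n = 2). Its isoform had 11 and 12 pairs with DMSO and 15 and 4 with imatinib, or 4.35 and 3.36 CPM and 5.52 and 2.69 CPM, so the conditions overlapped. The log2 usage of the isoform was -1.67 (SE 0.57), with an unadjusted p of 0.00755 and an adjusted p of 0.199 (edgeR diffSpliceDGE), and of -2.32 to -1.19 over the 6 fits of these isoforms. At the level of poly(A) clusters the log2 usage of this end was -1.67 (SE 0.55, adjusted p = 0.538, edgeR diffSpliceDGE), where 0.0597% of clusters were called. Its isoform was the one among the 9 tested for SLC2A1 and SLC2A3 with an unadjusted p under 0.05, and 0 of the 9 passed after adjustment. Without DMSO replicate 1 or without imatinib replicate 2, 0 isoforms of these genes had an unadjusted p under 0.05. It is named for this reason, after its values were seen. All promoter pairs that ended within 20 kb of the start were also counted, in an isoform or not. They were 13.4% (95% Wilson interval 9.69 to 18.4%) and 11.1% (8.70 to 14%) with DMSO. With imatinib they were 4.63% (3.52 to 6.06%) and 2.50% (1.47 to 4.23%). Pairs with ends followed by 7 or more A, which the isoforms leave out, were not removed from this count. Over the whole gene such pairs numbered 6 and 24 with DMSO and 13 and 1 with imatinib. How many of them ended within 20 kb was not counted, so their part in this difference was not tested.

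**Figure D3:**
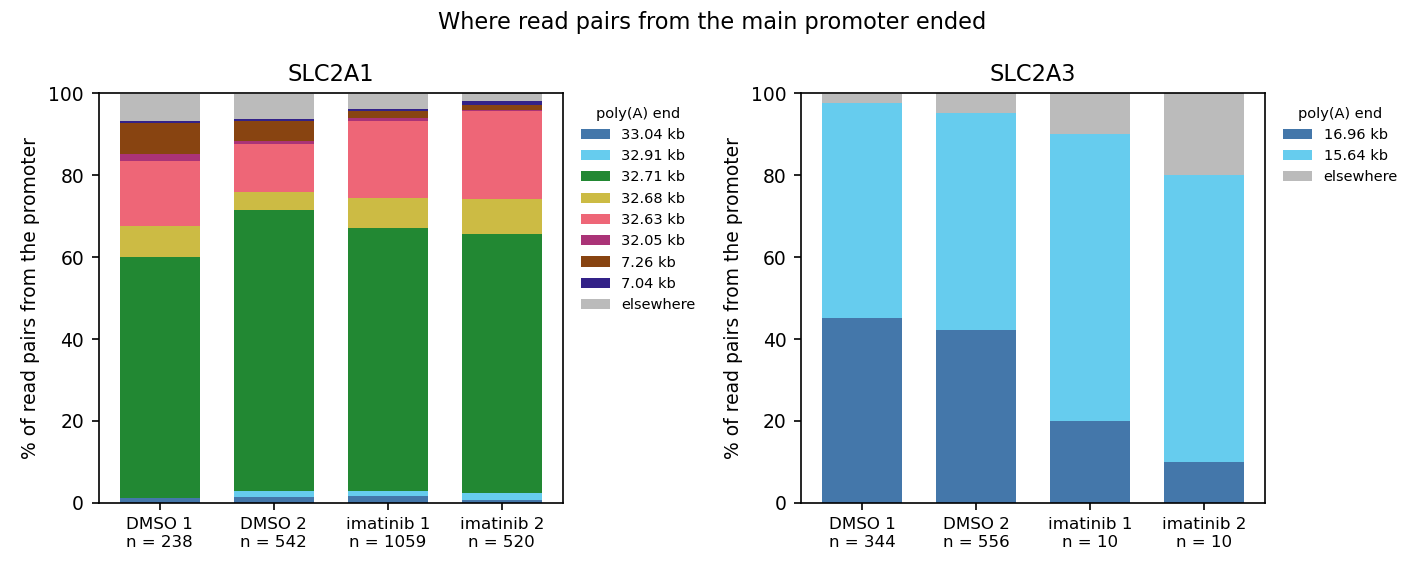
Share of read pairs from the SLC2A1 and the SLC2A3 promoter (y axis, %) that ended in each poly(A) cluster, per library (x axis, with the number of promoter pairs), with ends named by their distance from the start in kb. For SLC2A1 the end at 7.26 kb took 4.80 to 7.56% in DMSO and 1.35 to 1.79% in imatinib, and the SLC2A3 imatinib bars rest on 10 pairs each.

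Pairs that began inside the genes, more than 200 bp downstream of the start, were counted too. In SLC2A1 they were 10.2% and 11.5% of pairs with DMSO, 20.6% (95% Wilson interval 18.5 to 22.9%) in imatinib replicate 1 and 10.3% in imatinib replicate 2. Only the first imatinib library stood apart. Without these pairs, promoter pairs numbered 238 and 542 with DMSO and 1059 and 520 with imatinib. In SLC2A3 internal starts were 24.4% and 23.7% of the DMSO pairs, and 4 and 2 pairs with imatinib.

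The promoter of SLC2A1 also gave rise to a lncRNA in the opposite direction. SLC2A1-DT (chr1:42959049-42996814, plus strand) had its most used start 178 bp upstream of the main SLC2A1 start. It had 10 and 11 pairs with DMSO and 385 and 96 with imatinib, a rise of 4.70 on the log2 scale (SE 0.47, adjusted p = 0.00139, edgeR), where 6.46% of genes were called higher. It rose 4.12 without imatinib replicate 1 and 5.07 without imatinib replicate 2. Its 2 isoforms shared the end at chr1:42983354. One had 6 and 4 pairs with DMSO and 113 and 19 with imatinib, and the other, from a start 58 bp further on, had 2 and 0 and then 61 and 17, a ratio per deposited pair of 52.8 with a 95% counting interval of 14.1 to 443. Each imatinib library was above both DMSO libraries for both isoforms, and the share of all isoforms separated in this way was not counted. The difference in fold between SLC2A1 and SLC2A1-DT was not tested.

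Among 35 other genes of glucose handling, 16 had enough read pairs to be tested, 3 rose (18.8% of those tested, against 6.46% of all genes) and 1 fell (6.25%, against 3.26%). Their median log2 fold change was 0.40, against 0.03 over all genes tested. The lists were chosen with earlier results of these data known, so these shares are a description and not a test. Of the 11 other SLC2 transporters, 8 had a read pair and 3 were tested. SLC2A11, a fructose and glucose carrier, had 13 and 26 pairs with DMSO and 65 and 28 with imatinib and rose by 1.60 on the log2 scale (SE 0.37, adjusted p = 0.0237, edgeR). That call was lost without DMSO replicate 1 (adjusted p = 0.16), without DMSO replicate 2 (0.0841), without imatinib replicate 1, where the log2 fold change was 1.49, and in DESeq2 (0.0926). SLC2A4, the insulin-responsive GLUT4 gene, had 11 and 11 pairs and then 13 and 11, and SLC2A13, the proton myo-inositol cotransporter gene, had 28 and 32 and then 64 and 24, and neither was called. Of the 6 sodium-coupled and other sugar transporters only SLC50A1 was tested, at a log2 fold change of -0.26 (SE 0.28). The highest level of these other SLC2 genes in any library was 13.1 CPM (SLC2A11, imatinib replicate 1).

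Of the 5 hexokinases, HK1 and HK2 were tested. HK2, the inducible hexokinase of growing cells, had 87 and 133 pairs with DMSO and 9 and 8 with imatinib, and fell by 3.27 on the log2 scale (SE 0.41, adjusted p = 0.00294, edgeR). With 3′ ends followed by 7 or more A left out, it fell by 2.35 (SE 0.50, adjusted p = 0.0153, edgeR). HK1, the widely expressed form, had 1236 and 1221 pairs with DMSO and 1429 and 915 with imatinib, a log2 fold change of 0.29 (SE 0.29) that was not called.

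Of the 9 regulators, 8 were tested and 2 rose. ARRDC4, an arrestin-domain protein that lowers glucose uptake, had 9 and 17 pairs with DMSO and 84 and 50 with imatinib and rose by 2.76 on the log2 scale (SE 0.38, adjusted p = 0.00369). MLXIPL, which encodes the glucose-responsive factor ChREBP, had 1 and 1 pairs and then 13 and 7, a log2 fold change of 3.51 (SE 0.72, adjusted p = 0.0149), a call lost without DMSO replicate 1 (adjusted p = 0.0768), without DMSO replicate 2 (0.22) and in DESeq2 (0.133). TXNIP, the related arrestin that promotes GLUT1 endocytosis, had 1163 and 1974 pairs with DMSO and 4359 and 1574 with imatinib, a log2 fold change of 1.22 (SE 0.27, adjusted p = 0.0183) under the fold limit. HIF1A, ARNT, MLX, MLXIP and MYC were not called, with log2 fold changes of -0.77 for MYC to 0.66 for ARNT. EPAS1 had too few pairs. Of the 4 genes of lactate export, SLC16A1 and BSG were tested and not called, at log2 fold changes of -0.53 and 0.89. BSG (SE 0.24, adjusted p = 0.0389, edgeR) missed the call only by the fold limit.

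**Figure D4:**
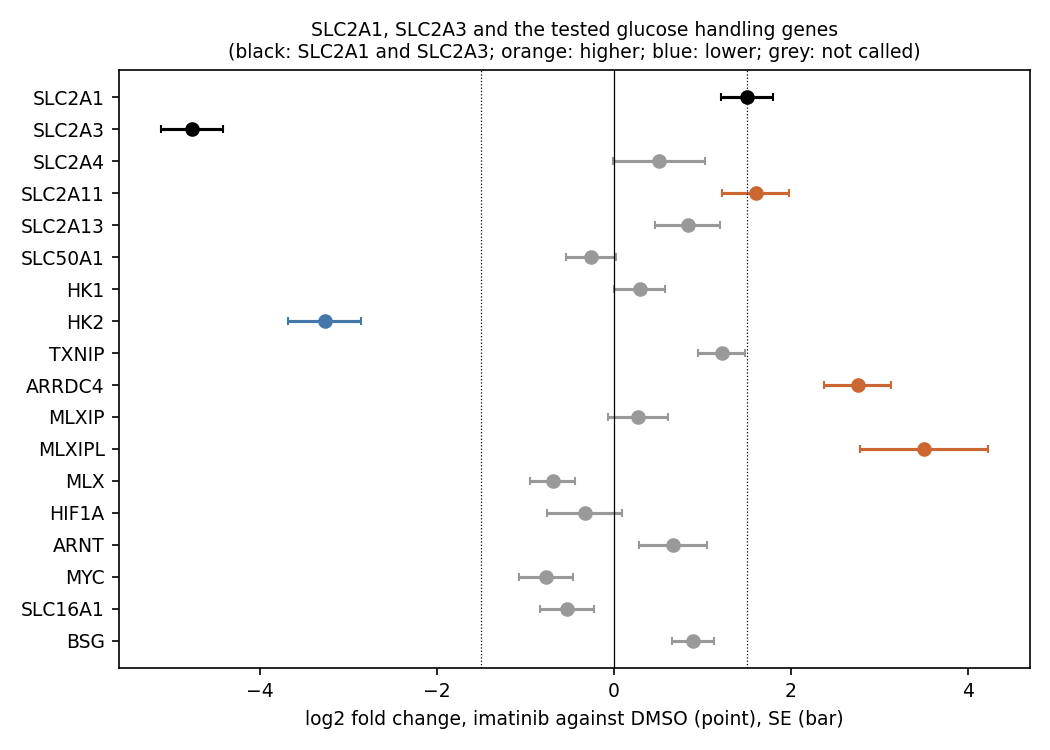
Log2 fold change of imatinib against DMSO (x axis, point) with its standard error (bar) for SLC2A1 and SLC2A3 (black) and the 16 tested glucose handling genes, coloured by call (orange higher, blue lower, grey not called), with dotted lines at the fold limit of 1.5. SLC2A3 and HK2 lie furthest to the left, and MLXIPL, ARRDC4, SLC2A11 and SLC2A1 to the right.

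The genes most like SLC2A1 across the 4 libraries, by Euclidean distance of centred log2 CPM among 7754 genes, were ARHGAP25 (0.13), KCNN4 (0.20) and SIPA1 (0.23). Those most like SLC2A3 were TRDN (0.38), ENSG00000237311 (0.60) and FAM47E (0.60). The distance rests on 4 libraries and orders genes by little more than the fold change and the spread within conditions.

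The 4 libraries held 2263121 to 5135829 read pairs, and replicates correlated at 0.978 (DMSO) and 0.952 (imatinib) in log2 CPM over genes. Over all features tested, 1180 genes (9.72%) and 1575 of 16020 isoforms (9.83%) were called in either direction. Erythroid genes moved with the condition. Of 14 erythroid markers 14 were tested and 9 rose, with a median log2 fold change of 2.03, and their summed level was 6408 to 7145 pairs per 1000000 with DMSO and 20850 to 22065 with imatinib. GATA1, an erythroid master regulator, was at a log2 fold change of -0.07. The part of this shift in the values of SLC2A1 and SLC2A3 was not tested. Of the 5 monocyte and granulocyte markers CD14 was at 0 and ITGAM, MPO and CSF1R had 1 to 3 pairs, while LYZ had 1450. Their summed level was 101 to 131 pairs per 1000000 with DMSO and 37.1 to 110 with imatinib. Of the 5 lymphoid markers CD3E and MS4A1 were at 0, and the summed level was 29.8 to 41.3 and 22.1 to 24.4 per 1000000. The epithelial markers EPCAM and KRT19 had 1853 and 529 pairs, and the summed level of the 4 epithelial and fibroblast markers was 143 to 170 and 109 to 188 per 1000000.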

How the data were processed

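TIF-Seq2 was run on RNA from K562 cells, and its tables hold counts of read pairs per 5′ and 3′ position. According to the study's methods, the authors trimmed the reads with cutadapt 1.16 (versions from the submitters' processing notes), aligned both ends to hg38 with STAR 2.5.3a, kept uniquely mapped pairs, removed PCR duplicates by molecular identifier and deposited raw counts, one table per library. The tables held 2263121 to 5135829 read pairs per library. Intervals and floors cover counting error only. The methods call the 2 replicates of each condition biological.

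From these counts, pairs were summed per Gencode v44 gene (both ends within 1 kb of the body, same strand). CPM are counts per 1000000 after TMM scaling. Genes and transcript isoforms passing filterByExpr were compared with edgeR 4.0.16 quasi-likelihood tests and called where the log2 fold change exceeded 1.5 in size and the Benjamini-Hochberg adjusted p was below 0.05. Isoforms were rebuilt after the study's methods: 3′ ends followed in the genome by 10 nt holding at least 7 A were dropped, tags with at least 1 power-law normalized count in 2 libraries were joined within 10 bp, and a start and a poly(A) cluster shared by at least 4 pairs, 300 bp to 2 Mb apart, made an isoform. Usage was tested with diffSpliceDGE. Isoforms with at least 5% of their gene's isoform pairs in a condition were named. The fits were also run on simulated data, and the outcome of that run is not reported here. Alternatives included DESeq2 1.42.0, no filter, other clustering limits and leaving out each library. Ends of 50 nt were searched in hg38 with blastn 2.17.0. The genes described and the gene lists were chosen with earlier results of these data known. The 3′T-fill libraries were not analysed here, and the long-read transcript models were not used, since none lay near these genes. The SLC2A3 promoter sequence is not reported here.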

Additional observations from a re-analysis of the deposited data

How the results depend on the processing

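SLC2A1 stayed higher and SLC2A3 lower in imatinib under each alternative in which their totals were read. The fit without the filter on low counts and the one with replicate numbers crossed were not read for this. Leaving out 1 library at a time gave log2 fold changes of 1.20 to 1.84 for SLC2A1 and -5.07 to -4.45 for SLC2A3, 787 to 1931 genes called against 1180, 710 to 2680 isoforms against 1575, 1 to 232 isoforms with called usage against 242, and 2 to 4 called genes in the glucose lists. The low usage counts came from leaving out a DMSO library. The cause of these moves was not tested. DESeq2 called 1000 isoforms and 2 list genes, and without the filter on low counts 2579 isoforms were called, with 34441 tested. Joining tags within 20 bp gave 160 isoforms with called usage, and taking tags with 2 raw counts gave 38 isoforms of the 3 genes in place of 15. No isoform of these genes had called usage under any alternative in which their usage was read. The fits without the filter and with crossed replicate numbers were not read for it. No pair spanned SLC2A3 and SLC2A14 under any setting, which was fixed in advance because no pair had an end at SLC2A14.

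With the replicate number as a block, the log2 fold changes of SLC2A1 and SLC2A3 were 1.53 and -4.76, and 1019 genes, 1089 isoforms and 64 usage changes were called. The replicate block changed no call of a named gene. The labels do not say that a number marks a shared batch, and the replicate differences of the 2 conditions correlated at -0.24 over genes. Crossing the pairs, chosen after seeing the data, gave 1402 genes, 2203 isoforms and 392 usage changes. In depth, SLC2A3 end choice rests on 20 promoter pairs after imatinib, and SLC2A14 on the limit of 3 pairs. Each arm had 2 libraries, so a lone library left in an arm was assumed to vary like the others.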

Other observations

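Within the main SLC2A1 start cluster, 2 positions 7 bp apart were used in different proportions in the 2 conditions. Of the pairs that began at chr1:42958861 or chr1:42958868, 22.6% (95% Wilson interval 16.4 to 30.3%) and 31.2% (26.1 to 36.8%) began at chr1:42958861 in the DMSO libraries. In the imatinib libraries 9.15% (7.14 to 11.6%) and 8.16% (5.71 to 11.6%) did. The positions were singled out after their values were seen, and the difference was not tested. A like comparison of 2 neighbouring positions in the proximal SLC2A3 end, chr12:7920544 and chr12:7920549, gave 15.7% and 29.8% in the 2 DMSO libraries, so shares within a cluster can also differ between replicates.

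A few pairs began in SLC2A1 and ended more than 2 Mb away on the chromosome, 0 and 1 with DMSO and 6 and 0 with imatinib. For SLC2A3 such pairs numbered 0 and 1 with DMSO and 0 with imatinib.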
